A study of Mus musculus with 20 samples.

Results

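A single pool of adult mouse retina RNA was run at a first site and at site 2, with 5 arrays each, and these 10 of the 20 samples of the series are described here. They were taken by their titles, which name the retina pool and, for site 2, the site. The pool held RNA of adult C57/B6 mouse retina, untreated as far as the labels say. The other 10 arrays carried a pool of Swiss-Webster cortex from postnatal day 1 at the same sites, and they are used only to ask whether a site difference also appeared with another RNA. The platform was the Amersham CodeLink array, on which biotin-labelled RNA is read in 1 colour. The design text gives as its purpose the variation within a platform and across sites. Because both sites received aliquots of the same pool, the animals were the same on all 10 arrays. Since the labels call arrays of one group technical replicates, a p-value here reflects array-to-array spread for 1 RNA and nothing about animals. Each site is also its own batch, and the site cannot be told apart from anything else that went with it.

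The retina is the light-sensing neural tissue of the eye. In rods and cones, light activates an opsin, the opsin activates transducin, and transducin switches on a phosphodiesterase that lowers cyclic GMP and closes a cation channel. Signals then pass through ribbon synapses to bipolar cells and on to amacrine and ganglion cells, with Müller glia spanning the whole depth. Rods are the most numerous cells of the mouse retina.

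Marker levels matched the labels. Summed over 11 rod phototransduction genes, intensity was 514.2 to 638.8 on the first-site retina arrays and 665.7 to 690.7 at site 2, against 28.9 to 49.8 on the cortex arrays. Summed over 11 genes of cortical neurons and progenitors it was 4.84 to 5.90 on the retina arrays and 123.4 to 174.4 on the cortex arrays. Intensities are linear table units in which 1 is close to the median probe of an array, and retina medians ran from 0.927 to 0.940. Of 10500 probes, 10357 had a value on at least 3 of 5 retina arrays at each site and were tested. Intensity shows how bright a probe was, not how abundant its transcript was, so no probe's level is set against another's. In RNA of a whole tissue, fewer cells of a type and less RNA per cell cannot be told apart, although here both sites had the same RNA.

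Most retina transcripts read the same at both sites within 2-fold. For 7815 of 10357 probes (75.5%) the 95% confidence interval of the site difference lay wholly within 2-fold, and such probes are called repeatable below. The median absolute difference was 1.27-fold. In limma, 646 probes (6.24%) were called, meaning a Benjamini-Hochberg adjusted p under 0.05 and a difference of at least 2-fold. Of these, 491 (4.74%) were higher and 155 (1.5%) lower at site 2, so 76% of calls were towards site 2. That split depended on the scaling, because after quantile normalization 493 probes were called, 296 higher and 197 lower (60% higher).

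Small differences were far more common than large ones. At an adjusted p under 0.05 with no limit on size, 5336 probes (51.5%) differed between the sites in limma. On 4053 probes (39.1%) the 5 arrays of one site all lay above the 5 of the other, with site 2 higher on 1742 (16.8%) and lower on 2311 (22.3%). Correlations of log2 intensity were somewhat lower between the sites than within them. Pairs of first-site arrays had r of 0.984 to 0.988 (10 pairs), pairs of site 2 arrays had 0.970 to 0.988, and arrays of different sites had 0.958 to 0.974 (25 pairs), all given as descriptions over probes of the same pool. Site 2 replicate 2 lay farthest from its own group, with a median r of 0.973 to the other site 2 arrays. On it 132 probes lay more than 4-fold from the mean of the other 4, against 18 to 82 on the other 9 arrays. Of these 132 probes only 1 was brighter than the median tested probe, against 0 to 3 on the other arrays.

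**Figure D1:**
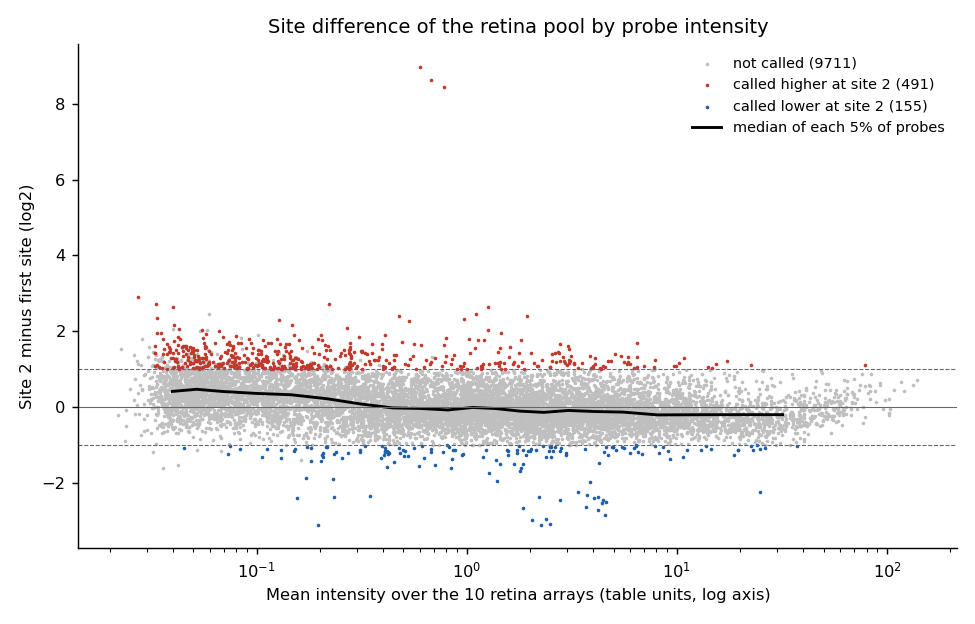
Site difference of each of the 10357 tested probes (site 2 minus first site, log2) against its mean intensity over the 10 retina arrays on a log axis. Red and blue points are the 491 and 155 probes called higher and lower at site 2, dashed lines mark 2-fold, and the black line joins the medians of each 5% of probes, which lie above 0 among dim probes and below 0 among bright ones; the 3 points above 8 carry no gene name.

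The difference between the sites turned with brightness. Probes were split by mean log2 intensity over the 10 arrays into 4 bands of equal size. In the dimmest band (mean intensity 0.0220 to 0.175) site 2 read higher by a median of 0.40 log2 (SD 0.10 over the 5 site 2 arrays, n = 5). The second band lay at 0.03 (SD 0.04) and the third at -0.08 (SD 0.03, n = 5 each). In the brightest band (3.52 to 139.6) site 2 read lower by a median of -0.17 log2 (SD 0.04, n = 5), and in the brightest 5% of probes by -0.20 (SD 0.08). On every site 2 array the dimmest band lay above the first-site mean (0.27 to 0.52) and the brightest band below it (-0.21 to -0.12). After quantile normalization, which makes the distributions of the arrays equal, the dimmest and brightest bands lay at 0.01 and -0.04.

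Bright transcripts were the more repeatable ones. The repeatable share was 42.3% in the dimmest band, 79.8% in the second, 88.6% in the third and 91.2% in the brightest, and it was 89.8% among the brightest 5%. The called share ran the other way, from 10.9% in the dimmest band through 6.49% and 4.29% to 3.24% in the brightest. Of the 283 calls in the dimmest band, 270 were higher at site 2 and 13 lower, whereas the 84 calls in the brightest band were 37 higher and 47 lower. The direction without overlap shows this too: in the brightest band all site 2 arrays were lower on 1001 probes (38.7%) and higher on 389 (15%), and in the dimmest band lower on 37 (1.43%) and higher on 363 (14%).

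The spread between arrays of one site also fell with brightness, and no difference in spread between the sites was detected in the deposited values. In the dimmest band the median SD over 5 arrays was 0.40 log2 at the first site against 0.42 at site 2, and in the brightest band it was 0.11 at both. Taken per array as the median distance from the other 4 arrays, the spread over all probes was 0.134 (SD 0.033, n = 5) at the first site and 0.136 (SD 0.020, n = 5) at site 2, with p = 0.881 in an exact 2-sided permutation test (adjusted 0.992 over 5 tests, smallest possible p 0.00794). In the 4 bands the exact p ran from 0.675 to 0.992, which leaves differences of this size undetected without showing that the spreads are equal. The distances of a site share arrays and were not recomputed in the permutations, so they are not independent and these p-values are approximate. With values floored at the 5th percentile the spread of the dimmest band was 0.085 higher at site 2 (adjusted p = 0.0397, exact permutation test). That floor (0.0435) was the same for every array. The 5th percentile of each first-site array lay below it (0.036 to 0.043) and that of each site 2 array above it (0.046 to 0.056). More first-site values were thus set to the floor, which narrows their spread, so this result cannot tell spread from level.

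**Figure D2:**
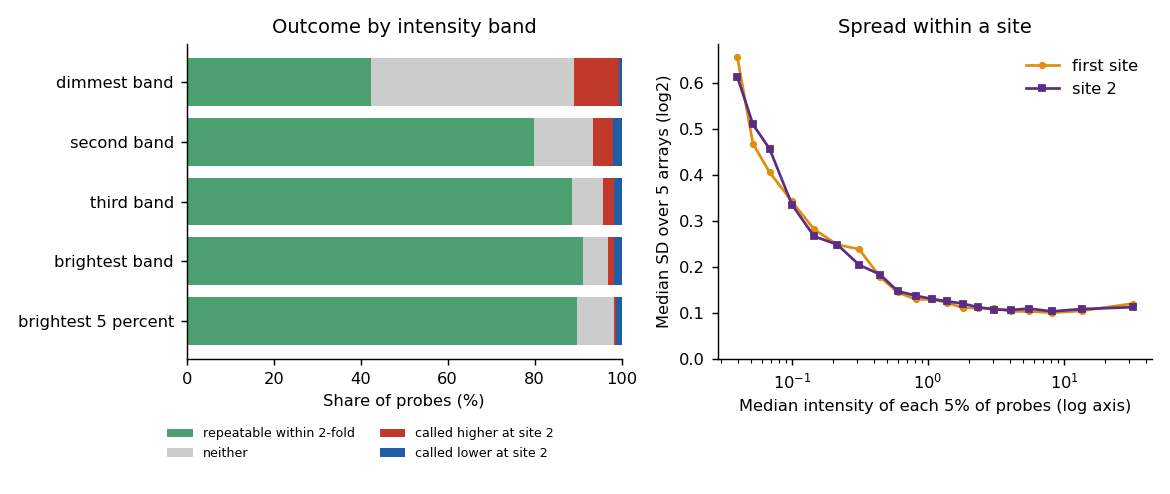
Left, the share of probes (%) in each intensity band that was repeatable within 2-fold, neither, or called higher or lower at site 2; the green part grows from 42.3% in the dimmest band to 91.2% in the brightest. Right, the median within-site SD (log2, 5 arrays) for each 5% of probes against their median intensity (log axis), where the lines of both sites fall together.

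At the very top of the scale the direction turned again. Among the 20 brightest tested probes site 2 was higher on 16, with all site 2 arrays above all first-site arrays on 13, below on 0, and a median difference of 0.43 log2. Over ranks 21 to 100 the median was 0.10, and over ranks 101 to 518 it was -0.26, where 178 of 418 probes were lower on every site 2 array. Array maxima were 98.4 to 121.5 at the first site, against 165.9 to 197.4 at site 2. Whether the first-site arrays had reached an upper limit was not tested.

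The 10 brightest genes show the step one by one. Gapdh, the glycolytic glyceraldehyde phosphate dehydrogenase, read 117.7, 95.95, 104.3, 112.2 and 116.9 on the first-site arrays and 174, 165.1, 171.8, 186.6 and 197.4 at site 2. Gnat1, the alpha subunit of rod transducin, read 118, 96.6, 98.01, 107 and 121.5 and then 162.8, 165.9, 160, 159 and 166.8. The site 2 arrays were the higher ones for both, without overlap, by 0.71 log2 (SE 0.08, adjusted p = 5.6e-05 in limma) for Gapdh and 0.60 (SE 0.08, adjusted p = 1.3e-04) for Gnat1, under 2-fold in each case. Sag, the rod arrestin that ends the light response, read 121, 98.1, 69.8, 94.7 and 87.3 at the first site and 159.7, 152.2, 154.3, 131.4 and 138 at site 2. Its first-site arrays were widely spread and all lay below site 2 (0.66 log2, SE 0.13, adjusted p = 0.0021). Eef1a1, a translation elongation factor, and Snap25, a SNARE protein of synaptic vesicle release, differed the same way without overlap, by 0.43 (SE 0.10) and 0.44 (SE 0.08).

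The other 5 of the 10 brightest genes overlapped between the sites. Glul, the glutamine synthetase of Müller glia, read 119.6, 95.5, 102.4, 113.1 and 117.9 at the first site and 94.5, 94.4, 89.4, 96.2 and 104.1 at site 2 (-0.19 log2, SE 0.08). Its site 2 arrays were mostly the lower ones. Rpl19, a ribosomal protein, differed by -0.15 (SE 0.07), Hmgn1 and Hmgn2, nucleosome-binding proteins, by 0.22 (SE 0.11) and -0.04 (SE 0.12), and Unc119, a lipid-binding trafficking protein of photoreceptors, by 0.20 (SE 0.10). All 10 genes were repeatable within 2-fold. Their values move with the scaling: after quantile normalization Gapdh, Gnat1, Eef1a1, Sag and Snap25 differed by 0.17, 0.17, 0.14, 0.19 and 0.20 log2, Glul, Rpl19 and Hmgn2 by -0.54, -0.44 and -0.45, and Hmgn1 and Unc119 changed sign (-0.10 and -0.11).

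The rod phototransduction genes repeated about as often as other probes of their brightness. Of 11 measured, 10 were repeatable and 0 were called in either direction, with a median difference of -0.05 log2. Over all 9101 genes tested 78.1% were repeatable, 5.65% were called and the median was 0.01, the background for every list below. Of the 11 rod genes 10 lay in the brightest band, where 91.2% of probes were repeatable and 3.24% called. Beyond Gnat1 and Sag, Pde6g, the inhibitory subunit of the rod phosphodiesterase, read 46.2, 43.1, 46.9, 51.4 and 55.8 at the first site and 83.9, 74.8, 71.8, 79.3 and 89.1 at site 2. This was higher at site 2 without overlap (0.71 log2, SE 0.09, adjusted p = 1.1e-04 in limma), while the catalytic subunits of the same enzyme lay on the other side. Pde6b read 61.1, 56.1, 52.6, 58.9 and 56.9 and then 46.7, 47.1, 49.6, 50.7 and 49.2, a difference of -0.23 (SE 0.06). Pde6a differed by -0.47 (SE 0.06) from 25.9 to 18.7. Both were lower on every site 2 array.

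Other rod genes overlapped or were moderately lower. Guca1a, which activates the guanylate cyclase that restores cyclic GMP, read 78.2, 69.8, 71.2, 69.4 and 75.98 and then 68.03, 64.99, 69.04, 76.7 and 73.8, with the sites overlapping (-0.05 log2, SE 0.07). Gnb1, the transducin beta subunit, differed by -0.08 (SE 0.08) and Rcvrn, the calcium sensor recoverin, by 0.24 (SE 0.12). Rgs9 and Gnb5, partners in the complex that shuts transducin off, were both lower on every site 2 array, by -0.45 (SE 0.08) and -0.48 (SE 0.07). The gene that was neither repeatable nor called was Gucy2e, a photoreceptor guanylate cyclase, which read 0.788, 0.571, 0.638, 0.533 and 0.550 at the first site and 0.429, 4.89, 0.438, 0.388 and 0.428 at site 2. A single array, replicate 2 of site 2, was high, and without it the difference moved from 0.17 to -0.54 log2.

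The cone genes were repeatable in 6 of 6 cases, with 0 called and a median of -0.29 log2 (-0.11 after quantile normalization). Opn1mw, the middle-wavelength cone opsin, read 23.7, 23.98, 25.96, 22.9 and 21.8 and then 15.6, 14.1, 15.3, 16.1 and 14.4. Gnat2, the cone transducin, read 28.5, 24.7, 23.9, 26.3 and 24.95 and then 17.3, 18.7, 16.6, 18.5 and 17.02. Both were lower on every site 2 array, by -0.65 log2 (SE 0.07, adjusted p = 3.6e-05 in limma) and -0.54 (SE 0.07, adjusted p = 1.1e-04). Gnb3, the cone transducin beta subunit and the brightest of the list, differed by -0.28 (SE 0.10), Pde6h, the inhibitory subunit of the cone phosphodiesterase, by -0.30 (SE 0.07), and the sodium-calcium exchanger Slc24a2 by -0.21 (SE 0.13). Cngb3, a cone channel subunit, lay at 0.11 (SE 0.08). Pde6c, the catalytic cone phosphodiesterase, could not be compared: its probe read 11.3, 11.2, 9.88, 10.2 and 9.54 at the first site and was blank on all 5 site 2 arrays.

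The list for outer segment and photoreceptor structure held 10 repeatable members of 13, and 1 was called in each direction (15.4%, against 5.65% over all genes). Rom1, a tetraspanin of the disc rim, read 64.8, 48.1, 48.9, 53.5 and 54.4 at the first site and 138.2, 110.6, 112.7, 107.2 and 110.3 at site 2. Every site 2 array was higher (1.10 log2, SE 0.10, adjusted p = 2.2e-05 in limma), and after quantile normalization the difference was 0.99 and no longer passed 2-fold. Prph2, the partner of Rom1 in the rim, read 73.3, 60.8, 61.1, 66.4 and 69.7 and then 68.1, 68.6, 73.8, 78.9 and 66.2 and overlapped (0.10 log2, SE 0.08). Mak, a kinase of the photoreceptor cilium, fell by 1.11 log2 (SE 0.09, adjusted p = 1.6e-05), from 3.08, 3.07, 2.39, 3.39 and 3.07 to 1.44, 1.44, 1.44, 1.26 and 1.35, again with no overlap. Its call was lost when all 20 arrays shared one estimate of the spread, with the difference still -1.11 log2. Cortex replicate 5 of site 2 read 2.24 for Mak in that fit.

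The remaining members of that list lay under 2-fold. Tulp1, a trafficking protein of photoreceptors, differed by 0.11 (SE 0.06), and Prom1, a membrane protein of disc formation, by -0.03 (SE 0.09). Rp1, which binds microtubules in the outer segment, was lower on every site 2 array (64.9 to 49.9, -0.38 log2, SE 0.08) and Rpgrip1, a connecting cilium protein, higher on every one (11.0 to 16.6, 0.59, SE 0.07). Abca4, the retinoid transporter of the discs, differed by 0.33 (SE 0.09), Impg1 of the matrix around photoreceptors by -0.11 (SE 0.09), Rpgr by -0.06 (SE 0.06) and Rp2 by -0.61 (SE 0.09). Kif17, a ciliary motor and the only member in the dimmest band, had a wide spread (-0.76, SE 0.38).

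**Figure D3:**
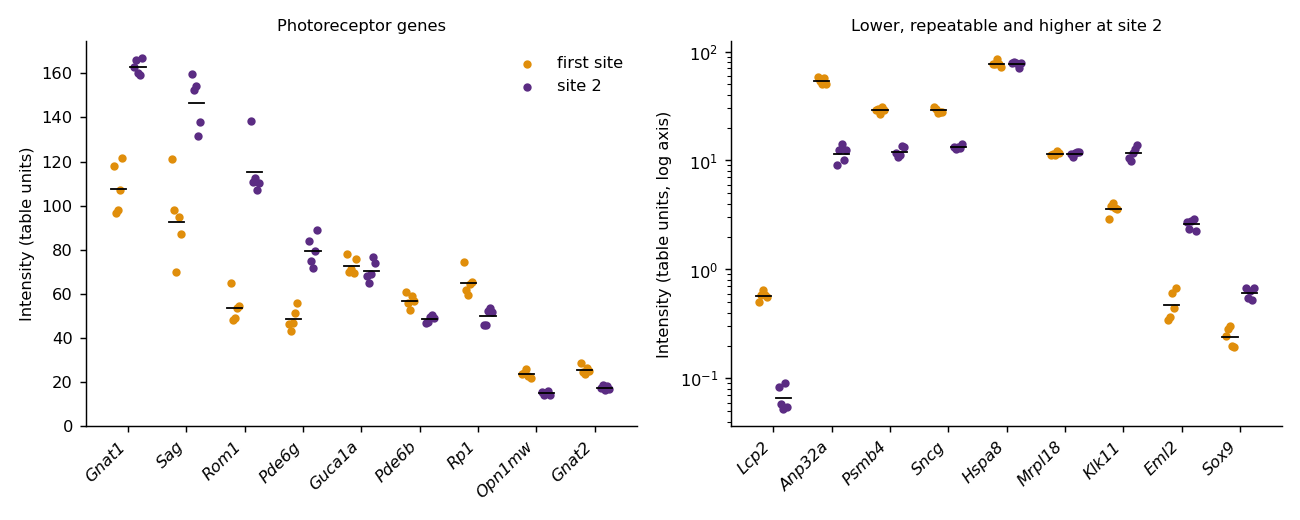
Intensity of each array for 9 photoreceptor genes (left, linear axis) and for 9 genes that were lower, repeatable or higher at site 2 (right, log axis); orange points are the 5 first-site arrays, violet points the 5 site 2 arrays and bars the geometric means. Gnat1, Sag, Rom1 and Pde6g lie higher at site 2, Opn1mw and Gnat2 lower, and Hspa8 and Mrpl18 coincide.

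Retinal transcription factors, bipolar cell genes and ribbon synapse genes repeated about as often as the rod genes. All 12 retinal transcription factors were repeatable with 0 called, among them Neurod1 (0.19 log2, SE 0.09), the brightest, Pax6, a master regulator of eye development (-0.58, SE 0.07), and Otx2, needed for photoreceptor and bipolar fate (-0.51, SE 0.06). Of 8 bipolar cell genes 7 were repeatable and 0 called. Pcp2, a G protein regulator of bipolar cells, read 31.7, 35.2, 34.7, 39.4 and 40.03 and then 45.3, 42.4, 44.6, 44.03 and 48.5, slightly higher at site 2 without overlap (0.32 log2, SE 0.08). Of 10 ribbon synapse genes 9 were repeatable and 0 called.

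Among 20 amacrine and horizontal cell genes 19 were repeatable, and Gjd2, the neuronal gap junction protein connexin 36, rose. It read 0.753, 0.686, 1.98, 0.914 and 0.742 at the first site and 2.89, 2.95, 3.11, 3.11 and 2.11 at site 2, a difference of 1.59 log2 (SE 0.27, adjusted p = 8.4e-04 in limma). Replicate 3 was the highest array of the first site and replicate 5 the lowest of site 2, and the sites still did not overlap. Gad1, the GABA-synthesising decarboxylase, differed by -0.17 (SE 0.06), and Calb2, calretinin, was repeatable although lower on every site 2 array (31.99 to 17.6, -0.86, SE 0.05).

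Of 16 ganglion cell genes 12 were repeatable (75%, against 78.1% over all genes) and 1 was called (6.25%, against 5.65%). Sncg, gamma-synuclein, read 31.3, 29.6, 27.4, 27.95 and 28.1 and then 13.4, 12.6, 13.2, 13.1 and 14.2. It fell by 1.12 log2 (SE 0.06, adjusted p = 2.5e-06 in limma), the spread within each site being small, and after quantile normalization the difference was -0.89 and no longer passed 2-fold. Uchl1, a neuronal ubiquitin hydrolase, differed by -0.62 (SE 0.06) and Nefl, the light neurofilament, by -0.69 (SE 0.09), both under 2-fold and lower on every site 2 array. Slc17a6, the vesicular glutamate transporter of ganglion cells, differed the other way on its brighter probe (0.35, SE 0.08). Its dimmer probe lay at -0.38, so the direction of this gene depended on the probe. Thy1, a surface protein of ganglion cells, was neither called nor repeatable: it read 6.74, 4.61, 6.81, 6.2 and 2.91 at the first site and 2.74, 3.23, 3.81, 2.87 and 2.66 at site 2, with first-site replicate 5 down at the level of site 2.

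Müller glia genes were repeatable in 17 of 18 cases, with Sox9 called (5.56%, against 5.65% over all genes). Sox9, a transcription factor of glia and progenitors, read 0.243, 0.284, 0.302, 0.199 and 0.195 and then 0.672, 0.548, 0.630, 0.524 and 0.678. It rose by 1.34 log2 (SE 0.14, adjusted p = 4.8e-05 in limma), with every site 2 array higher. Apoe, the lipid carrier, differed by -0.36 (SE 0.08), Car2, carbonic anhydrase, by -0.48 (SE 0.07), Rlbp1, a retinaldehyde-binding protein, by -0.71 (SE 0.09) and Slc1a3, a glutamate transporter, by 0.71 (SE 0.09). The visual cycle had 7 of 8 repeatable and 0 called. Its members ran from Rdh5, a retinol dehydrogenase (-0.95, SE 0.13), to Rpe65, the retinoid isomerase (0.28, SE 0.10), and Ttr, transthyretin, lay at -0.12 (SE 0.05). Pigment epithelium genes were repeatable in 6 of 7 cases, with Krt18, a keratin, at -0.50 (SE 0.08), and lens genes in 7 of 9, with Cryab, alpha-B crystallin, at -0.85 (SE 0.10), and 0 of either list were called.

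Genes of other cell types that retina RNA can hold were checked too. Of 8 oligodendrocyte genes, 5 of them in the dimmest band, 3 were repeatable, the median was 0.65 log2 (0.29 after quantile normalization) and 1 was called. Sox10, a factor of that lineage, read 0.114, 0.167, 0.114, 0.133 and 0.141 and then 0.314, 0.323, 0.288, 0.497 and 0.280, rising by 1.33 log2 (SE 0.17, adjusted p = 1.4e-04 in limma). With values floored at the 25th percentile, Sox10 lay at 0.89 and lost its call. Pdgfra, the brightest, lay lower at site 2 (-0.80, SE 0.07). Microglia genes were repeatable in 9 of 12 cases with 0 called (Ctss, a cathepsin, -0.49, SE 0.12), endothelial genes in 7 of 10 with Esam, a junction protein, higher (1.12 to 2.47, 1.14 log2, SE 0.11) and Kdr, a VEGF receptor, at -0.15 (SE 0.07). Astrocyte genes were repeatable in 4 of 5 (Aldoc, -0.67, SE 0.06), erythroid genes in 1 of 2 (Hba-a1, a haemoglobin chain, -0.19, SE 0.10), connective tissue genes in 10 of 10 (Ptgds, -0.33, SE 0.06) and cortical genes in 10 of 12 (Fabp7, -0.73, SE 0.10).

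Cell cycle genes, 11 of 26 of them in the dimmest band, were repeatable in 17 cases (65.4%, against 78.1% over all genes). The called share was 7.69%, against 5.65% over all genes. Aurka and Pbk, mitotic kinases, were called higher, Pbk by 1.08 log2 and, after quantile normalization, by 0.68, under 2-fold. Aurka read 0.0677, 0.0611, 0.103, 0.0821 and 0.0654 and then 0.131, 0.257, 0.137, 0.184 and 0.169 (1.19 log2, SE 0.20, adjusted p = 8.1e-04 in limma), close to the lower end of the scale, and it lost its call after quantile normalization (0.83) and when values were floored at the 25th percentile (0.11). Pcna, the replication clamp and the only bright member, differed by -0.67 (SE 0.06). Immediate early genes were repeatable in 14 of 16 cases, with Jund at -0.15 (SE 0.06) and Egr2 called higher (0.0480 to 0.120, 1.33 log2, SE 0.24, adjusted p = 0.0010), a call also lost after quantile normalization (0.93) and with that floor, where the difference was 0.

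Genes of energy metabolism were bright and mostly a little lower at site 2. All 44 oxidative phosphorylation genes lay in the brightest band, 40 were repeatable and 0 were called. Their median was -0.32 log2, against -0.17 over all probes of that band. Every site 2 array was lower on 27 of the 44 (61.4%), against 23.3% of all genes and 38.7% of probes in that band. After quantile normalization the list median was -0.17, with 28 of 44 below 0, against 4805 of all 9101 genes. Cox6c, a cytochrome oxidase subunit, read 77.6, 69.2, 66.9, 65.6 and 66.5 and then 67.1, 68.9, 59.2, 66.2 and 71.4 and overlapped (-0.05, SE 0.07). Sdha, a succinate dehydrogenase subunit, was the farthest above 0, from 34.6 to 67.6 (0.96 log2, SE 0.08), close to the 2-fold limit and at 1.02 after quantile normalization.

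Glycolysis held both directions. Of 17 genes 14 were repeatable and the glucose transporters Slc2a1 and Slc2a3 were called lower (11.8% called, against 5.65% over all genes). Slc2a1 read 11.8, 10.4, 8.77, 10.4 and 11.2 and then 3.98, 3.97, 4.34, 4.91 and 5.26, a difference of -1.23 log2 (SE 0.11, adjusted p = 1.8e-05 in limma). Slc2a3 read 1.34, 1.34, 1.05, 1.25 and 1.08 and then 0.504, 0.655, 0.438, 0.284 and 0.308 (-1.53, SE 0.22, adjusted p = 2.7e-04). Neither overlapped between the sites. Hexokinase 1 (Hk1) lay on the other side, at 12.4, 13.2, 12.7, 13.4 and 14.1 and then 24.6, 21.3, 22.2, 21.6 and 22 (0.76, SE 0.06), while Tpi1, triose phosphate isomerase, was lower at site 2 and just under 2-fold (-0.97, SE 0.08). Enzymes of the citric acid cycle and mitochondrial import were repeatable in 16 of 17 cases, with Mdh1, malate dehydrogenase, higher on every site 2 array (0.43, SE 0.06).

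In the deposited scaling the proteasome list had the largest share of genes lower on every site 2 array among the 28 lists. Its 26 genes all lay in the brightest band, and 25 were repeatable. Every site 2 array was lower on 21 of them (80.8%), against 23.3% of all genes and 38.7% of probes in the brightest band. The list median was -0.45 log2, against -0.17 over that band. After quantile normalization the list median was -0.25 and 12 of 26 were lower on every site 2 array, against 1937 of all 9101 genes. The 12 of 26 were a smaller share than the 4 of 8 of the visual cycle. Psmb4, a subunit of the catalytic core, fell the most, from 29.2, 29.5, 26.5, 31.1 and 29.2 to 11.7, 10.7, 11.3, 13.5 and 13.2 (-1.27, SE 0.08, adjusted p = 5.0e-06 in limma), and Psmd1, the brightest, differed by -0.25 (SE 0.09). Chaperones had a median of -0.40 (-0.19 after quantile normalization) and 18 of 21 repeatable. Hspa8, the constitutive Hsc70, read 76.3, 76.3, 85.6, 76.4 and 72.1 and then 78.4, 79.5, 79.1, 71.02 and 77.7, overlapping between the sites (0.00, SE 0.06), whereas Tcp1, a chaperonin subunit, fell by 1.04 log2 (SE 0.06), and by 0.98, under 2-fold, after quantile normalization.

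Ribosomal protein genes went both ways. Of 50, 42 were repeatable, 3 were called lower and 0 higher, and the median was -0.20 log2. The called share was 6%, against 5.65% over all genes. Rpl8 read 41.6, 30.9, 30.7, 35.1 and 33.5 and then 14.9, 15.1, 13.9, 16.3 and 18.7 (-1.12, SE 0.11), Rpl27 22.4, 20.8, 18.7, 22.2 and 22.6 and then 9.23, 8.27, 8.75, 11.6 and 12.2 (-1.11, SE 0.12), and Rpl26 fell by 1.19 (SE 0.15), with adjusted p in limma of 2.6e-05, 5.2e-05 and 1.2e-04. After quantile normalization Rpl26 lay at -1.09, while Rpl8 (-0.88) and Rpl27 (-0.91) were under 2-fold. In the same family Rpl11 (0.88, SE 0.09) and Rpl5 (0.74, SE 0.09) were higher on every site 2 array without reaching 2-fold. Cytoskeletal genes of common use were repeatable in 12 of 13 cases, with Actb, beta-actin, at 0.03 (SE 0.12), Tuba1c, an alpha-tubulin, at 0.28 (SE 0.09) and Tubb5, a beta-tubulin, at -0.94 (SE 0.07).

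**Figure D4:**
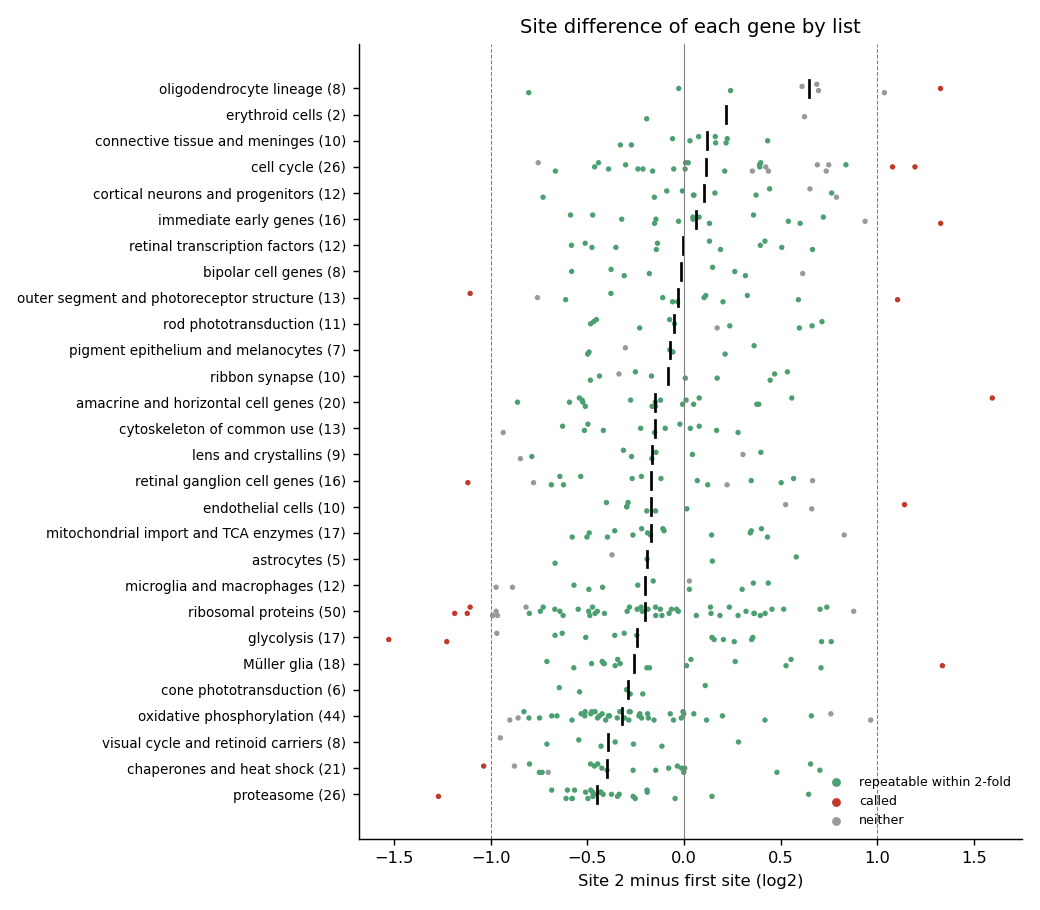
Site difference (site 2 minus first site, log2) of every tested gene in 28 lists, with the number of genes in brackets, ordered by list median (black bars); green genes were repeatable within 2-fold, red genes were called and grey genes were neither. Dashed lines mark 2-fold. The proteasome and chaperone genes centre at -0.45 and -0.40 and the oligodendrocyte genes at 0.65 (-0.25, -0.19 and 0.29 after quantile normalization, not drawn).

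The 8 largest increases among named genes without overlap were 5.01-fold to 6.61-fold. Stk32c, a serine-threonine kinase, read 0.0475, 0.0623, 0.231, 0.0784 and 0.0891 at the first site and 0.6, 0.676, 0.687, 0.820 and 0.265 at site 2, a 6.61-fold rise (2.73 log2, SE 0.44, adjusted p = 5.4e-04 in limma). The lowest site 2 array, replicate 5, still lay above the highest first-site array. Tra2a, a splicing factor, read 1.78, 0.429, 0.172, 0.366 and 0.668 and then 2.83, 3.40, 3.18, 2.00 and 5.06 (6.27-fold, SE 0.54 log2), with first-site arrays spread over 10-fold. Eml2, a microtubule-binding protein, read 0.343, 0.367, 0.609, 0.444 and 0.675 and then 2.75, 2.33, 2.78, 2.93 and 2.24 (5.51-fold, SE 0.19). The other 5 were Dppa2 (6.55-fold), 1700030J22Rik (5.30-fold), D16Ertd472e (5.26-fold), Spata16 (5.14-fold) and Slc38a2, an amino acid transporter (5.01-fold). Dppa2 and Spata16 lay at the lower end of the scale, with first-site means of 0.0130 and 0.0181, and the Dppa2 call was lost when values were floored at the 5th percentile (0.97), both calls when floored at the 25th. The Spata16 call was also lost without first-site replicate 1, after quantile normalization and when all 20 arrays were fitted together.

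The 8 largest decreases among named genes were 3.67-fold to 8.62-fold. Lcp2, an adaptor of T cell receptor signalling, read 0.501, 0.584, 0.642, 0.588 and 0.561 at the first site and 0.0841, 0.0587, 0.0525, 0.0915 and 0.0548 at site 2, 8.62-fold lower (-3.11 log2, SE 0.16, adjusted p = 2.5e-06 in limma). The first site measured it tightly and site 2 read close to the 5th percentile of intensities (0.0435). Sla, a Src-like adaptor, read 0.542, 0.530, 0.552, 0.540 and 0.498 and then 0.0945, 0.0978, 0.0781, 0.123 and 0.134 (5.14-fold lower), and Lcp1, the actin bundler L-plastin, 0.347, 0.476, 0.438, 0.485 and 0.501 and then 0.110, 0.136, 0.119, 0.109 and 0.128 (3.72-fold lower). Izumo3, a sperm protein, was 5.23-fold lower, Cenpf, a centromere protein, 5.07-fold, Atp2a2, the calcium pump SERCA2, 3.86-fold and Tspan1, a tetraspanin, 3.67-fold. With a floor at the 25th percentile Izumo3 (-0.98) and Tspan1 (-0.87) no longer passed 2-fold.

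Large differences were not limited to dim probes. Anp32a, a nuclear phosphoprotein, read 58.3, 53.6, 50.8, 56.8 and 50.3 at the first site and 9.19, 12.5, 14.04, 10.1 and 12.6 at site 2, 4.66-fold lower (-2.22 log2, SE 0.12, adjusted p = 2.5e-06 in limma). At both sites it lay well inside the brightest band and the sites did not approach each other. In that band Ik (2.77-fold), Pink1, a kinase of mitochondrial quality control (2.59-fold), Eif4e, the cap-binding factor (2.47-fold), Psmb4 (2.41-fold) and Tcf3, an E-protein transcription factor (2.39-fold), were also lower. Pink1 read 14.2, 15.4, 14.7, 16.1 and 14.02 and then 5.87, 6.09, 6.26, 5.57 and 4.99, and Tcf3 7.89, 7.38, 6.72, 7.48 and 6.99 and then 3.15, 3.05, 2.93, 2.92 and 3.17. Neither gene had an array of one site within the range of the other.

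Bright genes that rose did so by about the same factor. Klk11, a serine protease, read 2.93, 3.81, 4.07, 3.7 and 3.61 at the first site and 10.6, 9.95, 11.7, 12.8 and 13.8 at site 2 (3.24-fold, 1.70 log2, SE 0.11, adjusted p = 6.2e-06 in limma). All 5 site 2 arrays stood clear of the first site. Ncam2, a neural adhesion molecule, was 2.64-fold higher (its value on site 2 replicate 1 was blank, so 4 arrays entered), Flrt3, an adhesion and guidance protein, 2.56-fold, Cfc1, a Nodal co-receptor, 2.51-fold, Ube2h, a ubiquitin-conjugating enzyme, 2.51-fold and Gapvd1, a regulator of endocytosis, 2.45-fold. Of the 83 genes named by rule 39 were called, 38 of these kept the call whichever single retina array was left out, and 28 kept it in every setting tried.

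Some genes read alike on every array. Tmem42, a membrane protein, read 4.14, 4.05, 4.13, 3.98 and 4.01 at the first site and 4.03, 3.95, 4.12, 4.33 and 4.02 at site 2 (0.01 log2, 95% interval -0.10 to 0.12). Mrpl18, a mitochondrial ribosomal protein, read 11.3, 11.5, 11.3, 12.2 and 11.8 and then 11.4, 10.9, 11.8, 11.9 and 12.1 (0.00, -0.12 to 0.12). Snurf, Cops3 (a COP9 signalosome subunit), Ccni (a cyclin) and Trmt2a (a tRNA methyltransferase) were the next tightest of the brightest band, with differences from -0.01 to 0.01. These 6 genes were picked for their narrow intervals, so the closeness is a description. Quantile normalization moved Snurf to 0.17.

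Dim probes could repeat as well. Egf, epidermal growth factor, read 0.164, 0.146, 0.166, 0.157 and 0.147 at the first site and 0.154, 0.146, 0.157, 0.163 and 0.136 at site 2 (-0.05 log2, 95% interval -0.20 to 0.11). Ctrb1, chymotrypsinogen, read 0.149, 0.156, 0.17, 0.132 and 0.170 and then 0.139, 0.146, 0.165, 0.173 and 0.159 (0.01, -0.19 to 0.21). Their arrays overlapped throughout, as did those of Prkch, a protein kinase C (0.05), and Xdh, xanthine dehydrogenase (0.00), picked the same way. Because the dimmest band as a whole stood 0.40 higher at site 2, quantile normalization moved Ctrb1, Prkch and Xdh to -0.29, -0.34 and -0.40. No detection call was used, so the presence of these transcripts was not tested.

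Some bright probes were measured at one site only. Of the 143 probes not tested, 104 had values at the first site and were blank on all 5 site 2 retina arrays, and 90 of these were blank on all 5 site 2 cortex arrays too. Ddx46, an RNA helicase, read 71.7, 58.5, 59.3, 66.2 and 64.3 on the first-site arrays before being lost at site 2, and Tspan3, a tetraspanin, read 70.3, 63.5, 56.5, 55.5 and 59.2. Sptan1, the alpha-spectrin of neurons (mean 51.7), and Klc1, a kinesin light chain (44.7), were also blank on all 5 site 2 retina arrays. In cortex Klc1 was blank on only 1 of the site 2 arrays. In the other direction 18 probes were blank on every first-site retina array, all 18 on every first-site cortex array as well. The brightest, Ndufa4 of the respiratory chain, read 112, 110.9, 106.6, 104.2 and 150.9 at site 2. The reason for the blanks was not given in the sources used here.

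The site difference of a probe was largely shared between the retina and the cortex RNA. Among 10339 probes tested in both pools, 269 were called in both, which is 41.6% of the 646 retina calls and 41.3% of the 652 cortex calls (background in cortex 6.34%), and 268 of them went the same way. Of the retina calls, 96.4% had the same sign in cortex, against 78.7% of all probes. The site differences in the pools had r = 0.686 over all probes and 0.737 over the 2583 of the brightest band, given as a description over probes that share arrays, scaling and design. The median cortex difference was 0.86 log2 for the probes called higher in retina and -1.04 for those called lower. Anp32a (-2.22 in retina, -2.20 in cortex), Klk11 (1.70 and 1.75), Lcp2 (-3.11 and -2.98), Eml2 (2.46 and 2.33) and Sncg (-1.12 and -1.15) show how close the values could be.

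The shift differed between the pools on 75 probes (0.725%), tested as the retina shift minus the cortex shift in limma, 28 of them above 0 (0.271%) and 47 below (0.455%). Of the 646 retina calls 21 were among them. Several of the largest differences belonged to photoreceptor genes that were bright in retina and dim in cortex. Gnat1 shifted by 0.60 log2 in retina and -4.24 in cortex (difference 4.83, SE 0.49, adjusted p = 4.6e-05). Its cortex arrays read 1.80, 5.24, 4.56, 3.44 and 0.905 at the first site and 0.163, 0.155, 0.116, 0.203 and 0.0954 at site 2. Sag (3.30, SE 0.44), Rom1 (3.13, SE 0.36) and Rp1 (2.66, SE 0.55) shifted in the same sense, as did Mgarp, a mitochondrial protein (3.89, SE 0.49), and Ptpn14, a tyrosine phosphatase (3.33, SE 0.35), whose retina levels of 74.6 and 61.8 rose to 115.2 and 113 at site 2 without reaching 2-fold. All 5 first-site cortex arrays lay above all 5 of site 2 for Gnat1, Sag, Rom1, Mgarp and Ptpn14.

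The photoreceptor lists were also summed on the cortex arrays. Summed over the 11 rod genes the cortex arrays lay between 39.9 and 49.8 at the first site, and between 28.9 and 33.8 at site 2, and over the 13 outer segment genes 18.5 to 23.8 and 15.1 to 15.9, without overlap. The rod sum is not carried by Gnat1 and Sag alone: on first-site cortex replicate 5, where Gnat1 read 0.905, the sum was 40.5, and the more widely expressed Gnb1 and Gnb5 shifted by -0.58 and -0.49 log2 in cortex. Over the 6 cone genes they read 1.34 to 2.38 and 1.64 to 2.91. In cortex 2 rod genes (Gnat1 and Sag) and 3 outer segment genes (Rom1, Tulp1 and Rp1) were called lower at site 2 (background 1.91%), and 1 cone gene was called higher (background 4.43%). Whether retina signal reached the first-site cortex arrays was not tested.

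**Figure D5:**
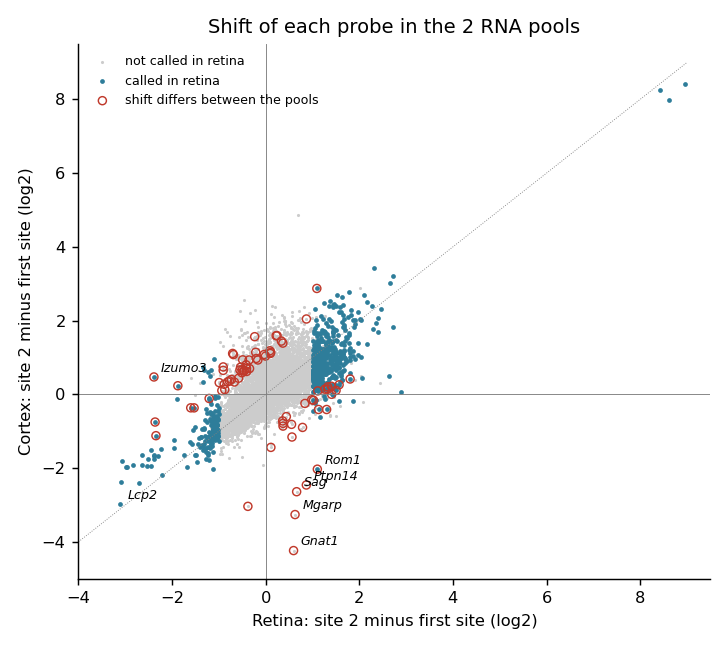
Site difference (site 2 minus first site, log2) of each probe in the cortex pool against that in the retina pool; blue points were called in retina, red rings mark the 75 probes whose shift differed between the pools, and the dotted line marks equal shifts. The shifts of the pools went together loosely (r = 0.686 over all probes, 78.7% with the same sign). Gnat1, Mgarp, Sag, Ptpn14 and Rom1 lie far below the line.

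Other interactions were found in dimmer genes and in both directions. Izumo3 fell by 2.39 log2 in retina and stood at 0.47 in cortex (difference -2.86, SE 0.50, adjusted p = 0.0054 in limma). Its first-site retina arrays read 0.353, 0.312, 0.506, 0.368 and 0.278, against 0.0224, 0.0901, 0.0696, 0.113 and 0.0795 on the first-site cortex arrays. Tspan1 (-2.11, SE 0.41) fell in retina and stood at 0.23 in cortex, where its levels of 0.0770 and 0.0905 were in the dimmest range. Sla (-1.61, SE 0.17) and Cenpf (-1.22, SE 0.22) fell in both pools and more in retina. Sox10 (1.12, SE 0.20) and Egr2 (1.19, SE 0.25) rose in retina and stood at 0.20 and 0.14 in cortex, where neither was called. Both were brighter in cortex, with first-site levels of 1.17 and 0.658, against 0.133 and 0.0480 in retina. Without cortex replicate 5 of site 2 the number of probes whose shift differed was 121 in place of 75.

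Probes of one gene often disagreed about the site. Of 141 genes with several tested probes, 75 had all probes repeatable, 31 had a called probe, and in 26 of these another probe was repeatable. Ttbk2, a tau-tubulin kinase, had 1 probe at 2.30 log2 (0.0577 to 0.283) and another, brighter one at -0.26 (5.67 to 4.74). Krit1, a vascular protein, had probes at 1.91 and -0.04, and Ube2h at 1.33 and -0.23. Hif3a, a hypoxia-inducible factor, was the only gene with all probes called the same way (1.66 and 1.27), and Cyfip2, an actin regulator, the only one called both ways (1.22 and -1.06). These genes were chosen after their values were seen, and their site differences were those of probes, not of whole genes.

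In retina, what a probe was designed from went with its repeatability. Of 6349 probes designed from RefSeq transcripts 3.87% were called and 80.8% repeatable, whereas of 2067 probes from cDNA records with an AK accession 9.43% were called and 72.2% repeatable. Of 837 probes with another accession 11.1% were called, and of 1104 with none 10.1%, with 54.3% repeatable. In the brightest band the called shares were 1.72% for RefSeq, 4.46% for AK, 5.59% for other accessions and 9.68% for none, so RefSeq probes again had the lowest. Of the 21 calls without an accession there, 10 came from the run of neighbouring probes described next. In cortex the called shares of the same probes lay closer together, at 5.62% for RefSeq, 6.43% for AK, 7.17% for other accessions and 9.24% for none. In the brightest band of retina intensity the cortex shares were 3.62%, 3.74%, 7.26% and 9.68%, so RefSeq and AK probes hardly differed there. The part of probe design in these shares was not tested.

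Probes without a gene name held the widest shifts. Of called probes at least 4-fold apart, 18 were named, among 9245 named probes tested, and 26 unnamed, among 1112. Most of these unnamed probes came from the runs of neighbouring probes described next. Probes 2797 to 2814, 18 in a row, were all called lower at site 2, by 3.90-fold to 8.58-fold. On first-site replicate 1 they read 8.96 to 22.3, a median of 2.32-fold over the other first-site arrays. Probes 2976 to 2978 were called higher, reading at most 0.0693 on the first-site arrays, near the 5th percentile of intensities (0.0435), and at least 11.4 on the site 2 arrays. No fold is given for them, since the first-site values have no known background. Both runs shifted the same way in cortex, the first by -2.40 to -1.46 log2. What these probes detect is not given in the sources used here.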

How the data were processed

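Intensities were used as the authors deposited them, 1 value per probe and array on a linear scale. Labelling followed the CodeLink protocol, per the labels' protocols. How the arrays were scanned, background-corrected, scaled and filtered is not given in the sources used here. Values at or below 0 were treated as missing and the rest put on the log2 scale. Blanks made up 0.974% of retina values.

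The 10 retina arrays were fitted in limma 3.58.1 (R 4.3.3, lmFit and eBayes, 8 residual and 1.90 prior degrees of freedom). P-values were adjusted by Benjamini-Hochberg over 10357 probes. The script was tested on simulated data. The retina and cortex shifts were compared in 1 fit of all 20 arrays, and the cortex shift came from its 10 arrays. Plots used Python 3.11.15 with matplotlib 3.10.9. No 2 arrays held identical values.

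Of 10500 probes 9378 had 1 gene symbol, 8 several and 1114 none. The Entrez identifiers of 9323 were found in a RefSeq table. The brightest probe stood for a gene. Genes were named by rule: the largest differences without overlap in each direction, overall and in the brightest band, the brightest genes, those with the narrowest interval around 0, the brightest and most shifted member of each list, and the largest interactions. Other list members and genes with several probes were chosen after their values were seen. The members and lists were chosen with earlier results of these data known. Replicate numbers were not used as pairs: same-numbered arrays of the sites had correlated deviations of only -0.003 to 0.053. Alternatives covered the fold limit, scaling, floors, filters, the fit and each array left out. The number of arrays limits the precision.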

Additional observations from a re-analysis of the deposited data

Results flagged for a closer look

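Of 277 groups of 5 arrays, for 140 genes, 18 had an array standing apart from the other 4, where chance flags about 1 in 20 groups. For the genes among them that were named by rule, leaving out that array moved no call. For the other genes, among them Tpi1, which lay just under 2-fold, the call was not retested without the array. Gucy2e read 4.89 on site 2 replicate 2, against 0.388 to 0.438 on the other site 2 arrays. On the same array Tpi1 read 7.85 (others 6.10 to 6.44). Site 2 replicate 5 stood apart for 6 genes: Stk32c at 0.265 (others 0.6 to 0.820), Gjd2 at 2.11 (2.89 to 3.11), Flrt3 at 7.61 (5.72 to 6.01), Pde6h at 22.4 (17.9 to 18.1), Sdha at 77.5 (64 to 66.9) and Rpl5 at 105.4 (85.2 to 87.1). Site 2 replicate 1 was high for Rom1 at 138.2 (107.2 to 112.7) and for Hk1 at 24.6 (21.3 to 22.1). Site 2 replicate 4 was high for Sox10 at 0.497 (0.280 to 0.323) and low for Hspa8 at 71.0 (77.7 to 79.5). Site 2 replicate 3 was low for Tulp1 at 57.1 (64.1 to 66.3) and high for Rp2 at 0.794 (0.614 to 0.660). At the first site, replicate 5 was low for Xdh at 0.0724 (0.0950 to 0.0993) and for Ttr at 34.2 (36.6 to 37.5), and replicate 3 was low for Mak at 2.39 (3.07 to 3.39) and high for Gjd2 at 1.98 (0.686 to 0.914).

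For 17 genes the site difference in retina differed from that in cortex by the interaction test in limma. The retina shift minus the cortex shift was 4.83 log2 for Gnat1, 3.89 for Mgarp, 3.33 for Ptpn14, 3.30 for Sag, 3.13 for Rom1, 2.66 for Rp1 and 1.55 for Tulp1. It was 1.19 for Egr2 and 1.12 for Sox10. Below 0 lay Izumo3 at -2.86, Tspan1 at -2.11, Sla at -1.61, Cenpf at -1.22, Slc2a3 at -1.16, Fabp7 at -1.13, Tubb5 at -1.04 and Cngb3 at -1.03.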

How the results depend on the processing

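The count of 646 calls (491 higher, 155 lower) moved most with the fold limit and the treatment of dim probes. It was 2345 (1433 higher, 912 lower) with a 1.5-fold limit and 5336 (2492 and 2844) with none. A floor at the 25th percentile left 325 calls (193 higher) and leaving out the dimmest band 364 (222 higher). After quantile normalization 296 were higher. With a 1.5-fold limit 4496 probes were repeatable in place of 7815. The bands' median differences, 0.40, 0.03, -0.08 and -0.17 from dimmest to brightest, were 0.011, -0.053, -0.033 and -0.037 after quantile normalization, and the brightest 5% lay at -0.028. The dimmest band lay at 0.29 when values were floored at the 5th percentile and at 0 when floored at the 25th. With the 5th-percentile floor, the spread of the dimmest band was 0.085 higher at site 2 (adjusted p = 0.0397, exact permutation test). That floor replaced more first-site than site 2 values by a constant, so this result cannot tell spread from level. Leaving out 1 retina array gave 614 to 702 calls (443 to 542 higher, 155 to 171 lower) and 7611 to 7766 repeatable probes. The count of 75 probes that shifted differently in the pools was 56 to 121 with 1 array of either pool left out, the highest without cortex replicate 5 of site 2. With the replicate number as a block 629 probes were called (474 higher, 155 lower) and 7834 repeatable. Among genes named by rule 11 lost their call in some setting, and 0 reversed. Causes were not tested. The background of dim probes is unknown, which limits their reading.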
